A study of Homo sapiens with 6 samples.

Results

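The 10 genes described here encode parts of the autophagy machinery and were taken by name from a table of 58299 human genes. They are ULK1 and ULK2, BECN1, WIPI1, ATG7, ATG5, ATG16L1, MAP1LC3B, GABARAPL1 and DRAM1, and 10 of 10 passed the expression filter, which 15358 genes passed in all. Poly(A) RNA was sequenced from AC16 cells kept for 48 h with 100 nM doxorubicin (3 libraries) or with 0.1% DMSO as control (3 libraries). The treatment labels do not state whether the doxorubicin cells also received DMSO. AC16 is a human cell line derived in part from ventricular cardiomyocytes, and the anthracycline doxorubicin traps type II topoisomerases on DNA and causes breaks. Nothing in the labels tells whether replicate libraries stem from separate cultures. The p-values therefore refer to the spread between these libraries, and that spread may be technical.

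Autophagy encloses cytoplasm in a double membrane, the autophagosome, and delivers it to the lysosome. A kinase complex built on ULK1 or ULK2 starts the process, and a lipid kinase complex that contains BECN1 then marks the growing membrane with a phosphoinositide that WIPI proteins bind. ATG7 activates ubiquitin-like proteins, ATG16L1 together with conjugated ATG5 directs where they are attached, and the attached proteins are those of the Atg8 family, LC3 and GABARAP. In heart muscle, autophagy clears damaged mitochondria and protein aggregates, and its course under anthracyclines has long been studied.

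Total counts ranged from 17252862 to 18665979 in the doxorubicin libraries and from 17929419 to 19571731 in the DMSO libraries. At these similar depths 26637 to 27359 genes had a count in doxorubicin libraries and 22431 to 22792 in DMSO libraries. Cardiomyocyte markers were close to absent, with 0 of 10 passing the expression filter and summed levels of 1.16 to 2.16 CPM (counts scaled to the library total, here with TMM factors between libraries) in doxorubicin and 0.312 to 0.442 CPM in DMSO. None of those 10 was at 0 in every library. Fibroblast markers were abundant in sum, and 6 of 8 fell, 0 rose and 2 did not pass the test. The summed level was 5456 to 8108 CPM in doxorubicin and 15740 to 18010 CPM in DMSO, most of it COL1A1 and COL1A2. Doxorubicin replicate 1 had the lowest sum. DCN overlapped between the groups, with 15.3, 27.1 and 25.6 CPM in doxorubicin replicates 1 to 3, against 23.1, 12.4 and 13.1 CPM in DMSO replicates 1 to 3. Of the endothelial markers 4 of 5 passed the filter, of which 1 (PECAM1) rose, 1 (TEK) fell and 2 did not pass the test, with a median log2 fold change of 0.52. Their levels summed to 9.43 to 10.8 CPM in doxorubicin and 14.5 to 16.6 CPM in DMSO, most of it TEK. Leukocyte markers, with 1 of 5 tested and 0 called, summed to 1.99 to 3.25 CPM in doxorubicin and 0.782 to 1.77 CPM in DMSO. The part that these shifts play in the results below was not tested. In bulk RNA, fewer cells of a kind and less RNA per cell cannot be told apart.

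After doxorubicin, 6 of the 10 genes rose, 3 fell and ULK2 did not pass the test. The kinase ULK1, the scaffold BECN1, the phosphoinositide-binding WIPI1, the Atg8-family genes MAP1LC3B and GABARAPL1, and the lysosomal membrane gene DRAM1 rose. The genes of the conjugation step, ATG7, ATG5 and ATG16L1, fell. Calls were made at an adjusted p under 0.05 in edgeR's quasi-likelihood test, with adjustment over all 15358 genes. At that threshold 64.7% of all tested genes were called, 32.7% as higher and 32.0% as lower, so being called was common in these libraries. The CPM values of the groups did not overlap for 9 of the 10 genes, against 69.1% of all tested genes. Only DRAM1 was called with a change of at least 2-fold, against 14.2% of all tested genes that were called at least 2-fold higher and 6.26% that were called at least 2-fold lower. The median log2 fold change, doxorubicin minus DMSO, was 0.33 over the 10 genes and -0.0013 over all tested genes. Against the stricter question of whether a change exceeded 1.5-fold, MAP1LC3B and DRAM1 passed and the other 8 did not.

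**Figure D1:**
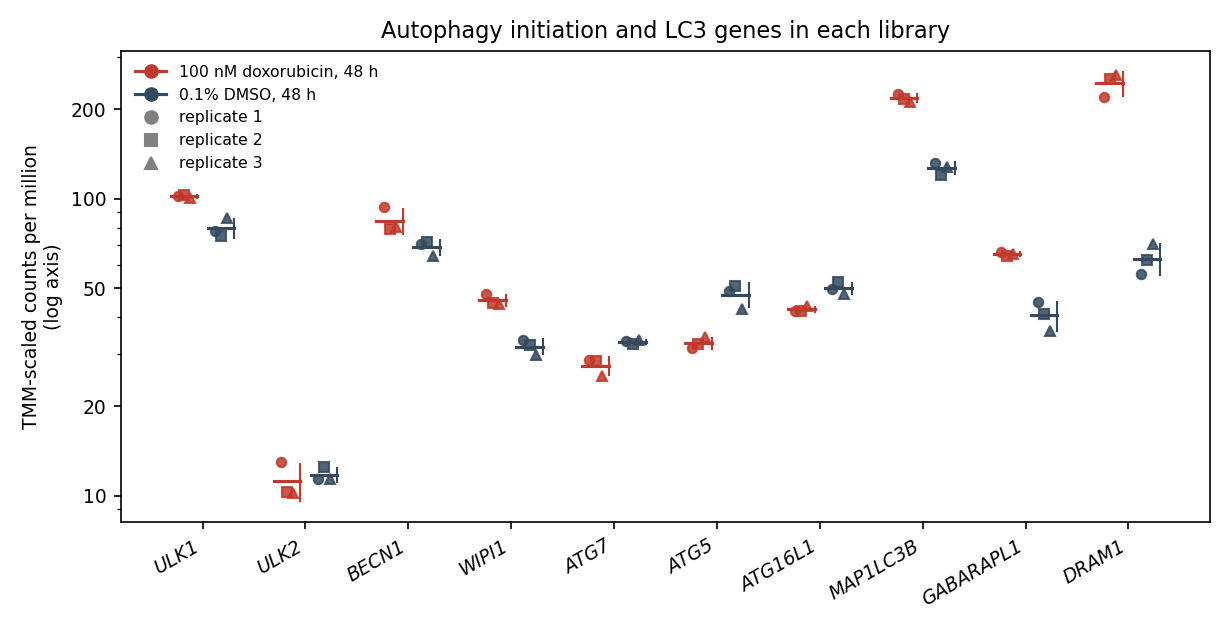
Level of each of the 10 genes in TMM-scaled CPM (log axis) in each library, in pathway order, with doxorubicin left of DMSO. Horizontal lines are group means and vertical lines are SD (n = 3 each). The doxorubicin points lie above all DMSO points for 6 genes, and below all of them for ATG7, ATG5 and ATG16L1. For ULK2, 1 doxorubicin point lies above the DMSO points and 2 lie below them.

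The ULK kinases. ULK1 (ENSG00000177169, GRCh38 chr12:131894651-131923167, plus strand) encodes the serine/threonine kinase that receives the nutrient signals of mTORC1 and AMPK. Its level, in CPM scaled between libraries by the TMM method, was 102.5, 102.6 and 100.8 in doxorubicin replicates 1 to 3, against 77.7, 74.7 and 86.0 in DMSO replicates 1 to 3. All doxorubicin libraries lay above all DMSO libraries, and they spread less. The means were 102.0 ± 0.999 CPM in doxorubicin and 79.5 ± 5.88 CPM in DMSO (SD, n = 3 each). ULK1 rose 1.28-fold (log2 fold change 0.36, SE 0.067, 95% interval 0.22 to 0.50, edgeR adjusted p = 1.9e-04). ULK2 (ENSG00000083290, chr17:19770829-19867936, minus strand), its close relative with overlapping function, had 13.01, 10.3 and 10.2 CPM in doxorubicin, against 11.4, 12.5 and 11.4 CPM in DMSO. The groups overlapped, and doxorubicin replicate 1 was the highest of the 6 libraries. The log2 fold change of ULK2 was -0.075 (SE 0.12, 95% interval -0.34 to 0.19, edgeR adjusted p = 0.62). Neither gene shares exon bases with another annotated gene.

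The scaffold of the lipid kinase. BECN1 (ENSG00000126581, chr17:42810134-42833350, minus strand) encodes Beclin 1, the subunit that BCL2 proteins bind and inhibit. It had 94.0, 79.1 and 80.2 CPM in doxorubicin, against 70.2, 71.4 and 64.4 CPM in DMSO. Doxorubicin replicate 1 stood above the other doxorubicin libraries, and the lowest doxorubicin library was still above the highest DMSO library. BECN1 rose 1.23-fold (84.4 ± 8.31 CPM in doxorubicin, 68.7 ± 3.74 CPM in DMSO, SD, n = 3 each; log2 fold change 0.30, SE 0.077, edgeR adjusted p = 0.0029). It was the smallest of the 6 rises. Of its exon bases, 17.1% lie in other annotated genes, most of them in CNTD1 on the opposite strand, which had 109 counts over the 6 libraries, against 8378 for BECN1. The libraries carry no strand, so reads of such overlaps cannot be assigned to one gene by strand.

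Recognition of the marked membrane. WIPI1 (ENSG00000070540, chr17:68420948-68457513, minus strand) encodes a beta-propeller protein that binds phosphatidylinositol 3-phosphate on the forming autophagosome. Its level was 47.7, 44.7 and 44.1 CPM in doxorubicin, against 33.5, 32.1 and 29.8 CPM in DMSO. The groups were well apart, and each spanned less than the gap between them. WIPI1 rose 1.43-fold (45.5 ± 1.95 CPM in doxorubicin, 31.8 ± 1.84 CPM in DMSO, SD, n = 3 each; log2 fold change 0.52, SE 0.078, edgeR adjusted p = 2.2e-05). Its exons overlap other genes over 28.1% of their bases, mainly ARSG on the opposite strand, which had 293 counts over the 6 libraries, against 4230 for WIPI1.

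The conjugation genes. ATG5 (ENSG00000057663, chr6:106045423-106325791, minus strand) encodes the protein that is joined to ATG12 and then helps attach LC3 to lipid. It had 31.4, 32.5 and 34.1 CPM in doxorubicin, against 49.1, 50.9 and 42.5 CPM in DMSO. Every doxorubicin library was below every DMSO library, and among DMSO libraries replicate 3 was the lowest. ATG5 fell 1.45-fold, the largest fall of the 3 (32.7 ± 1.37 CPM in doxorubicin, 47.5 ± 4.39 CPM in DMSO, SD, n = 3 each; log2 fold change -0.54, SE 0.083, edgeR adjusted p = 2.9e-05). ATG7 (ENSG00000197548, chr3:11272309-11557665, plus strand) encodes the E1-like enzyme that activates ATG12 and the Atg8-family proteins. It had 28.6, 28.5 and 25.2 CPM in doxorubicin, against 33.2, 32.4 and 33.4 CPM in DMSO. The DMSO libraries were close together, and doxorubicin replicate 3 was the lowest of all. ATG7 fell 1.20-fold (27.4 ± 1.91 CPM in doxorubicin, 33.0 ± 0.518 CPM in DMSO, SD, n = 3 each; log2 fold change -0.27, SE 0.082, edgeR adjusted p = 0.0099). Without doxorubicin replicate 3 the log2 fold change was -0.20 and the call was lost (edgeR adjusted p = 0.081). In addition, 18.1% of the exon bases of ATG7 lie within VGLL4 on the opposite strand, a gene with 1884 counts over the 6 libraries, against 3314 for ATG7. ATG16L1 (ENSG00000085978, chr2:233210051-233295674, plus strand) encodes the adaptor that places the ATG12-ATG5 conjugate on the membrane. It had 41.9, 41.9 and 43.5 CPM in doxorubicin, against 49.7, 52.3 and 48.0 CPM in DMSO, again with no overlap. ATG16L1 fell 1.18-fold (log2 fold change -0.24, SE 0.071, edgeR adjusted p = 0.0080).

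The windows taken as promoters of the 3 genes that fell, and of BECN1, which rose, hold the ETS site CCGGAAG and are shown for that. It was absent from the windows of the other 6 genes. Sequences are from RefSeq (GRCh38.p14) and run 5′ to 3′ on the gene's strand, from 250 bases before the transcript start to 50 after it. Capitals mark the ETS site on either strand. They are chr3:11272147-11272446 (plus) for ATG7, chr6:106325388-106325687 (minus) for ATG5, chr2:233251423-233251722 (plus) for ATG16L1 and chr17:42823830-42824129 (minus) for BECN1.
ATG7: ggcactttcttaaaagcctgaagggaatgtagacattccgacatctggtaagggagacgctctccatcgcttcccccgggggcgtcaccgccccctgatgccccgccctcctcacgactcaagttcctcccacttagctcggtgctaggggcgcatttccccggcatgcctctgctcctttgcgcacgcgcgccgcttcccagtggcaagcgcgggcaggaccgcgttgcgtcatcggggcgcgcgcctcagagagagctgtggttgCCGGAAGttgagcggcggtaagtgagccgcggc
ATG5: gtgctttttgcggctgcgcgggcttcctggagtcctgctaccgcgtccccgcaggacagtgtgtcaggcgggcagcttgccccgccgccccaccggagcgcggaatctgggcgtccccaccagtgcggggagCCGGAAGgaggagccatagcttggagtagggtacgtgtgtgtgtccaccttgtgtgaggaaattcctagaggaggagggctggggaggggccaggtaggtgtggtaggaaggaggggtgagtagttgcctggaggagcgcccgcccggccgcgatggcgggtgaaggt
ATG16L1: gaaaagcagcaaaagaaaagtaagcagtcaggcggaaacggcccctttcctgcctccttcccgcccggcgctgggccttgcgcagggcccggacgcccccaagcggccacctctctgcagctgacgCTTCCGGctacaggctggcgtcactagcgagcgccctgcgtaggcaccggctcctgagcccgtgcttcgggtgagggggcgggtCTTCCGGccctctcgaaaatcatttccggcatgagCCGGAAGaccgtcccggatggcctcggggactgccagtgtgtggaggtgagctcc
BECN1: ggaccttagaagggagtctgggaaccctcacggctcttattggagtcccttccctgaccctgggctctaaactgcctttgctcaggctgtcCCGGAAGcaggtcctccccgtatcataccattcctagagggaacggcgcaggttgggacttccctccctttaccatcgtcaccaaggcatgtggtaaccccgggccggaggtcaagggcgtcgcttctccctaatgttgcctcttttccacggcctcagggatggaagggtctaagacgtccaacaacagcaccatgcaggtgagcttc
The site is at bases 268 to 274 of the 300 in ATG7, 133 to 139 in ATG5 and 92 to 98 in BECN1. ATG16L1 holds it at 3 places, starting at bases 127, 211 and 246. It occurs in 10.3% of all 35116 promoters of the RefSeq table, so a match is common and describes letters, not binding. ATG5 has a second promoter in the table, 27.7% G and C, without the site. The BECN1 window lies inside the annotated gene, which on the minus strand begins at base 42833350. Its marked site may therefore lie in an intron rather than in a promoter. The ATG5 and ATG16L1 windows also lie inside the annotated gene spans.

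The LC3 and GABARAP genes. MAP1LC3B (ENSG00000140941, chr16:87383995-87404779, plus strand) encodes LC3B, the protein whose lipid-bound form is the usual marker of autophagosomes. It had 225.7, 216.9 and 212.1 CPM in doxorubicin, against 132.0, 120.3 and 127.9 CPM in DMSO. The lowest doxorubicin library was far above the highest DMSO library. MAP1LC3B rose 1.72-fold (218.3 ± 6.86 CPM in doxorubicin, 126.7 ± 5.96 CPM in DMSO, SD, n = 3 each; log2 fold change 0.78, SE 0.062, edgeR adjusted p = 1.4e-08). A related gene, MAP1LC3B2, shares 4.82% of the 50-base stretches of MAP1LC3B transcripts, and had 82 counts over the 6 libraries, against 18862 for MAP1LC3B. GABARAPL1 (ENSG00000139112, chr12:10212458-10223130, plus strand) encodes a GABARAP-type Atg8 protein. It had 66.0, 64.3 and 65.2 CPM in doxorubicin, against 44.9, 40.9 and 35.8 CPM in DMSO. The doxorubicin libraries were nearly level, while the DMSO libraries spread more widely. GABARAPL1 rose 1.61-fold (65.2 ± 0.821 CPM in doxorubicin, 40.5 ± 4.56 CPM in DMSO, SD, n = 3 each; log2 fold change 0.69, SE 0.081, edgeR adjusted p = 1.6e-06). An antisense gene overlaps 8.05% of its exon bases and had 0 counts.

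The promoters of this pair, from RefSeq (GRCh38.p14) with the same span, are shown because they hold the searched stress-response motifs that the other 8 genes lack. In MAP1LC3B (chr16:87392086-87392385, plus) the capitals mark the core of the antioxidant response element, TGACNNNGC. In GABARAPL1 (chr12:10212627-10212926, plus) they mark the cyclic AMP response element TGACGTCA, at bases 221 to 228.
MAP1LC3B: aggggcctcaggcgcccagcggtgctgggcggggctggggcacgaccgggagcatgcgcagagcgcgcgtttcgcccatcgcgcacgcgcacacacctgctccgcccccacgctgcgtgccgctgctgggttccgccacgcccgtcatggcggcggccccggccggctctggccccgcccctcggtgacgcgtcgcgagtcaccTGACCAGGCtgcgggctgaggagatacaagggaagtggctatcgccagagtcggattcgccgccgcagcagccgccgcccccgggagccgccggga
GABARAPL1: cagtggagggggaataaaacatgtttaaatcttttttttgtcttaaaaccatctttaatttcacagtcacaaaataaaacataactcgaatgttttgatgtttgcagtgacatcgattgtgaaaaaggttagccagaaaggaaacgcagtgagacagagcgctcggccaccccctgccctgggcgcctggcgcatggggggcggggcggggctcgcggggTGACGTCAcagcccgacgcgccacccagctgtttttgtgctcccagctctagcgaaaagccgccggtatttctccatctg
The antioxidant core lies at bases 205 to 213 of the MAP1LC3B promoter and occurs in 13.3% of all promoters in the table. The cyclic AMP response element occurs in 1.85% of them.

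The Atg8 family was taken as a whole on a per-length scale, TPM, which is the count over the summed exon length, rescaled to the same total in each library. That length covers all annotated exons of a gene and can exceed its main transcript, so shares and orders between genes depend on it. Summed TPM of its 7 genes was 528.5 ± 10.2 in doxorubicin and 331.7 ± 16.8 in DMSO (SD, n = 3 each). Of that sum, MAP1LC3B made up 34.9%, 34.9% and 33.3% in doxorubicin, against 31.3%, 30.6% and 31.1% in DMSO. GABARAPL2 made up 31.4%, 30.9% and 32.0% in doxorubicin, against 34.9%, 34.4% and 35.0% in DMSO. By these counts MAP1LC3B had the larger share in doxorubicin and GABARAPL2 in DMSO, and neither share overlapped between the groups. The share of GABARAPL1 was 13.3 ± 0.0937% in doxorubicin and 12.9 ± 1.36% in DMSO, and it overlapped, as did that of MAP1LC3A. GABARAP was low, with 4.10 ± 1.82 CPM in doxorubicin and 4.39 ± 1.19 CPM in DMSO. Its level, and with it the sum and each share above, is uncertain, since 55.7% of its exon bases lie in other annotated genes. The largest overlap, 691 bases, is with a gene on the same strand that had 0 counts. How reads in such overlaps were counted is not stated in the sources used here.

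**Figure D2:**
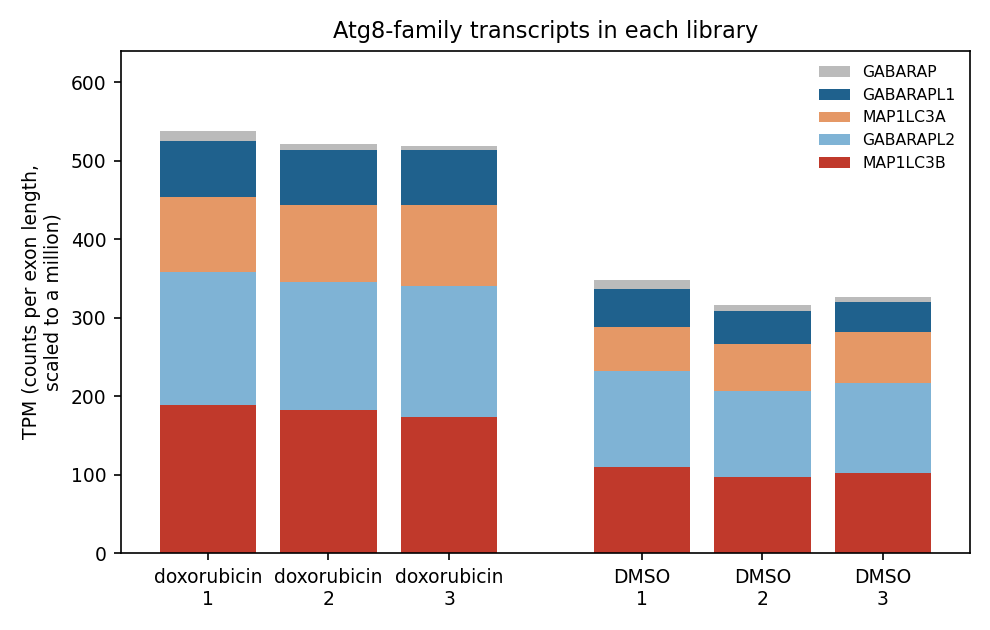
TPM of 5 Atg8-family genes stacked for each library, doxorubicin libraries on the left and DMSO libraries on the right. MAP1LC3B2 and MAP1LC3C, both under 1% of the sum, are left out. The doxorubicin stacks are taller, and the MAP1LC3B segment is 173.5 to 188.4 TPM in doxorubicin and 97.1 to 109.5 TPM in DMSO.

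DRAM1. DRAM1 (ENSG00000136048, chr12:101877351-102012130, plus strand) encodes a multi-spanning lysosomal membrane protein, the damage-regulated autophagy modulator. It had 219.4, 253.6 and 261.1 CPM in doxorubicin, against 55.9, 62.2 and 70.6 CPM in DMSO. The lowest doxorubicin library, replicate 1, was still several times the highest DMSO library. DRAM1 rose 3.89-fold (244.7 ± 22.2 CPM in doxorubicin, 62.9 ± 7.40 CPM in DMSO, SD, n = 3 each; log2 fold change 1.96, SE 0.089, 95% interval 1.77 to 2.15, edgeR adjusted p = 1.0e-10). Of all tested genes, 6.46% had a larger log2 fold change. The next in the set, MAP1LC3B, was exceeded by 18.1% of all tested genes.

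Its promoter from RefSeq (GRCh38.p14, chr12:101877330-101877629, plus), with the same span, is shown as that of the gene with the largest change.
DRAM1: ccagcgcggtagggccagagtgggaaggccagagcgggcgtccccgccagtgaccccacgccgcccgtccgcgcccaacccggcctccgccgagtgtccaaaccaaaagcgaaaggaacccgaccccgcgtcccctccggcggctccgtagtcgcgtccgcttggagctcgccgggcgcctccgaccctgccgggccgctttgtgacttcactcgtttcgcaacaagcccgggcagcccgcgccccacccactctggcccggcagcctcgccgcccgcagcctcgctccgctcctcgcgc
It holds a GC box, GGGCGG, on the minus strand, as do 45% of all promoters, and none of the stress-response motifs searched, so no base is in capitals. The window spans 300 bases only, and a p53 binding site was not among the motifs searched.

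**Figure D3:**
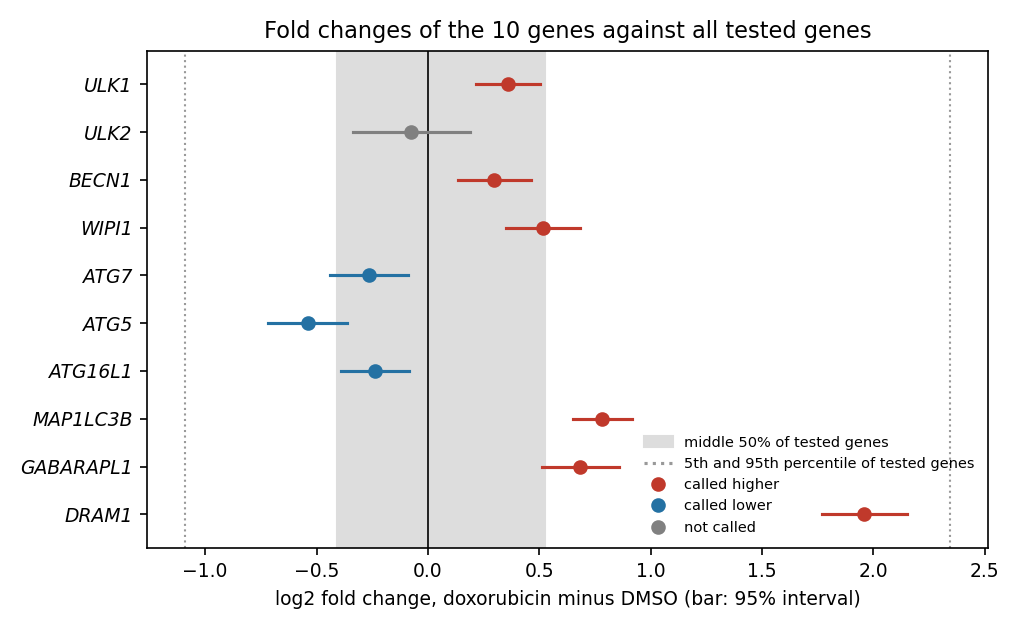
Log2 fold change, doxorubicin minus DMSO, of each of the 10 genes with its 95% interval, in pathway order from the top. The grey band holds the middle 50% of all tested genes (-0.41 to 0.52) and dotted lines mark their 5th and 95th percentiles (-1.09 and 2.34). MAP1LC3B and GABARAPL1 lie above the band, ATG5 lies below it, DRAM1 is the farthest to the right, and no gene passes the dotted lines.

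Set on the per-length scale, the order of the 10 genes differed between the groups. The order within a group is approximate, since it depends on the summed length of all annotated exons of each gene. In doxorubicin DRAM1 was the most abundant, at 232.9 to 271.5 TPM, followed by MAP1LC3B at 173.5 to 188.4 TPM and GABARAPL1 at 69.3 to 71.6 TPM. ULK1, WIPI1 and BECN1 came next, between 54.3 and 65.0 TPM, and neighbours among them overlapped. ATG16L1 at 30.8 to 31.2 TPM, ATG5 at 24.7 to 26.2 TPM, ATG7 at 12.4 to 14.4 TPM and ULK2 at 4.52 to 5.86 TPM followed without overlap. In DMSO MAP1LC3B was the most abundant, at 97.1 to 109.5 TPM, followed by DRAM1 at 58.9 to 71.6 TPM. BECN1, ULK1, GABARAPL1, WIPI1, ATG5 and ATG16L1 then lay between 31.9 and 48.4 TPM, and each overlapped the next. ATG7 at 15.7 to 16.6 TPM and ULK2 at 4.92 to 5.44 TPM were again the lowest.

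Other motifs were searched as well. The E-box CACGTG at the centre of the lysosomal CLEAR element, the AP-1 site TGANTCA, the forkhead site GTAAACA and the C/EBP-ATF site TTGCATCA were in 0 of the 11 promoters. Over all promoters they occurred in 7.26%, 7.71%, 3.42% and 0.866%. CCAAT was in the windows of BECN1 and WIPI1 and in the second window of ATG5, not the one printed, against 34.6% of all promoters. All motifs were sought on both strands, and the absence of a match says only that these letters are not in this window.

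Around the 10 genes, 65 other autophagy genes were counted in 10 lists by step of the pathway, and 62 of them passed the expression filter. Of those 62, 27 rose, 16 fell and 19 did not pass the test, beside 32.7% higher, 32.0% lower and 64.7% called among all tested genes. The counts by step below include the 10 genes where they belong to that step, and are to be read against the same shares. Over the 62 other genes, without the 10, the median log2 fold change was 0.09. In the ULK kinase complex 3 of 5 rose and 0 fell. They were ULK1, ATG13 and ATG101, the last a stabiliser of ATG13, which rose 1.48-fold (log2 fold change 0.57, SE 0.085, edgeR adjusted p = 2.1e-05). The scaffold RB1CC1 had a log2 fold change of -0.085 (edgeR adjusted p = 0.38). In the lipid kinase complex 3 of 8 rose and 1 fell. ATG14, the subunit that takes the complex to autophagy, rose 1.61-fold (30.2 ± 1.78 CPM in doxorubicin, 18.8 ± 1.27 CPM in DMSO, SD, n = 3 each), and NRBF2, an accessory subunit, rose 1.40-fold. The regulatory subunit PIK3R4 fell (log2 fold change -0.28), while the catalytic subunit PIK3C3 had 36.4, 40.8 and 36.3 CPM in doxorubicin, against 44.8, 41.6 and 40.7 CPM in DMSO, and did not pass (edgeR adjusted p = 0.084).

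In membrane supply and lipid transfer 3 of 9 rose and 4 fell. WDR45, a relative of WIPI1, rose 1.84-fold (log2 fold change 0.88, SE 0.075, edgeR adjusted p = 3.4e-08), and the lipid scramblase ATG9A fell 1.58-fold (log2 fold change -0.66, SE 0.073, edgeR adjusted p = 7.5e-07). Both share exon bases with other genes, mainly on the same strand, WDR45 over 13.9% of its bases and ATG9A over 38.8%. In the conjugation machinery 3 of 11 rose and 6 fell, with a median of -0.24. Without ATG5, ATG7 and ATG16L1, 3 of 8 rose, 3 fell and the median was 0.05. The negative median and the excess of falls therefore depended on including those genes. The 2 falls of at least 2-fold, in ATG4C and ATG10, lay outside them. Beside ATG5, ATG7 and ATG16L1, the genes that fell were ATG3, the E2-like enzyme for the Atg8 proteins, ATG10, the E2-like enzyme for ATG12, and the protease ATG4C. ATG4C fell 2.15-fold (6.71 ± 0.221 CPM in doxorubicin, 14.4 ± 2.57 CPM in DMSO, SD, n = 3 each), and ATG10 fell 2.07-fold (3.49 ± 0.610 CPM in doxorubicin, 7.27 ± 0.402 CPM in DMSO). Of the exon bases of ATG10, 6.86% lie in RPS23 on the opposite strand. RPS23 had 21452 counts over the 6 libraries, against 592 for ATG10, and the part of such reads in the ATG10 level was not tested. ATG16L2, a relative of ATG16L1, went the other way and rose 3.38-fold (15.8 ± 1.44 CPM in doxorubicin, 4.67 ± 0.558 CPM in DMSO, SD, n = 3 each; edgeR adjusted p = 1.0e-08). Of its exon bases, 7.89% lie in FCHSD2 on the opposite strand, which had 3197 counts over the 6 libraries, against 1116 for ATG16L2. ATG12 and the protease ATG4B also rose, with log2 fold changes of 0.23 and 0.34.

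In the Atg8 family 5 of 6 tested genes rose and 0 fell, with a median of 0.68. Without MAP1LC3B and GABARAPL1, 3 of 4 rose and the median was 0.58. MAP1LC3A rose 1.60-fold and GABARAPL2 1.41-fold. MAP1LC3B2 was called 2.05-fold higher at a low level (1.01 ± 0.0935 CPM in doxorubicin, 0.490 ± 0.0613 CPM in DMSO, SD, n = 3 each; edgeR adjusted p = 0.015). That call was lost without a filter, with DESeq2 and without any 1 of 3 libraries, doxorubicin replicate 3, DMSO replicate 2 and DMSO replicate 3 (adjusted p from 0.051 to 0.13), and 15.1% of its 50-base stretches are shared with MAP1LC3B. Among the autophagy receptors, which tie cargo to LC3, 6 of 8 rose and 0 fell, with a median of 0.65, where 32.7% of all tested genes rose and 32.0% fell. SQSTM1, which encodes p62, had 644.2, 373.9 and 380.6 CPM in doxorubicin, against 161.0, 162.6 and 163.3 CPM in DMSO. Doxorubicin replicate 1 stood apart, and SQSTM1 rose 2.87-fold (log2 fold change 1.52, SE 0.25, edgeR adjusted p = 0.0045), with a log2 fold change of 1.22 without that library. OPTN, a receptor for damaged mitochondria, rose 2.09-fold (201.7 ± 5.80 CPM in doxorubicin, 96.6 ± 5.56 CPM in DMSO, SD, n = 3 each). RETREG1, a receptor for the endoplasmic reticulum, rose 2.74-fold at a low level (3.05 ± 0.570 CPM in doxorubicin, 1.11 ± 0.633 CPM in DMSO). CALCOCO2 and TAX1BP1 did not pass, with log2 fold changes of -0.043 and 0.056.

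In autophagosome-lysosome fusion 4 of 7 tested genes rose and 1 fell. The SNARE YKT6 rose 1.41-fold and the late endosomal GTPase RAB7A rose 1.33-fold. In the DRAM family DRAM1 rose, and DRAM2 had 21.4, 21.2 and 23.4 CPM in doxorubicin, against 27.2, 26.8 and 22.1 CPM in DMSO, which overlapped (edgeR adjusted p = 0.075). Among transcription factors of autophagy genes 2 of 6 rose and 1 fell. FOXO1 rose 1.77-fold at a low level and TFEB 1.56-fold, while TFE3 fell (log2 fold change -0.22). Among upstream kinases and their partners 3 of 10 rose and 6 fell. DEPTOR, an inhibitor of mTOR, rose 4.73-fold (13.5 ± 2.02 CPM in doxorubicin, 2.85 ± 0.684 CPM in DMSO, SD, n = 3 each; edgeR adjusted p = 1.3e-08). PRKAB1, a regulatory subunit of AMPK, rose 2.84-fold (133.0 ± 14.0 CPM in doxorubicin, 46.9 ± 1.42 CPM in DMSO; edgeR adjusted p = 7.2e-11). The AMPK catalytic subunits PRKAA1 and PRKAA2 fell, with log2 fold changes of -0.52 and -0.55, and so did the mTORC1 components MLST8 and AKT1S1, with -0.83 and -0.61.

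**Figure D4:**
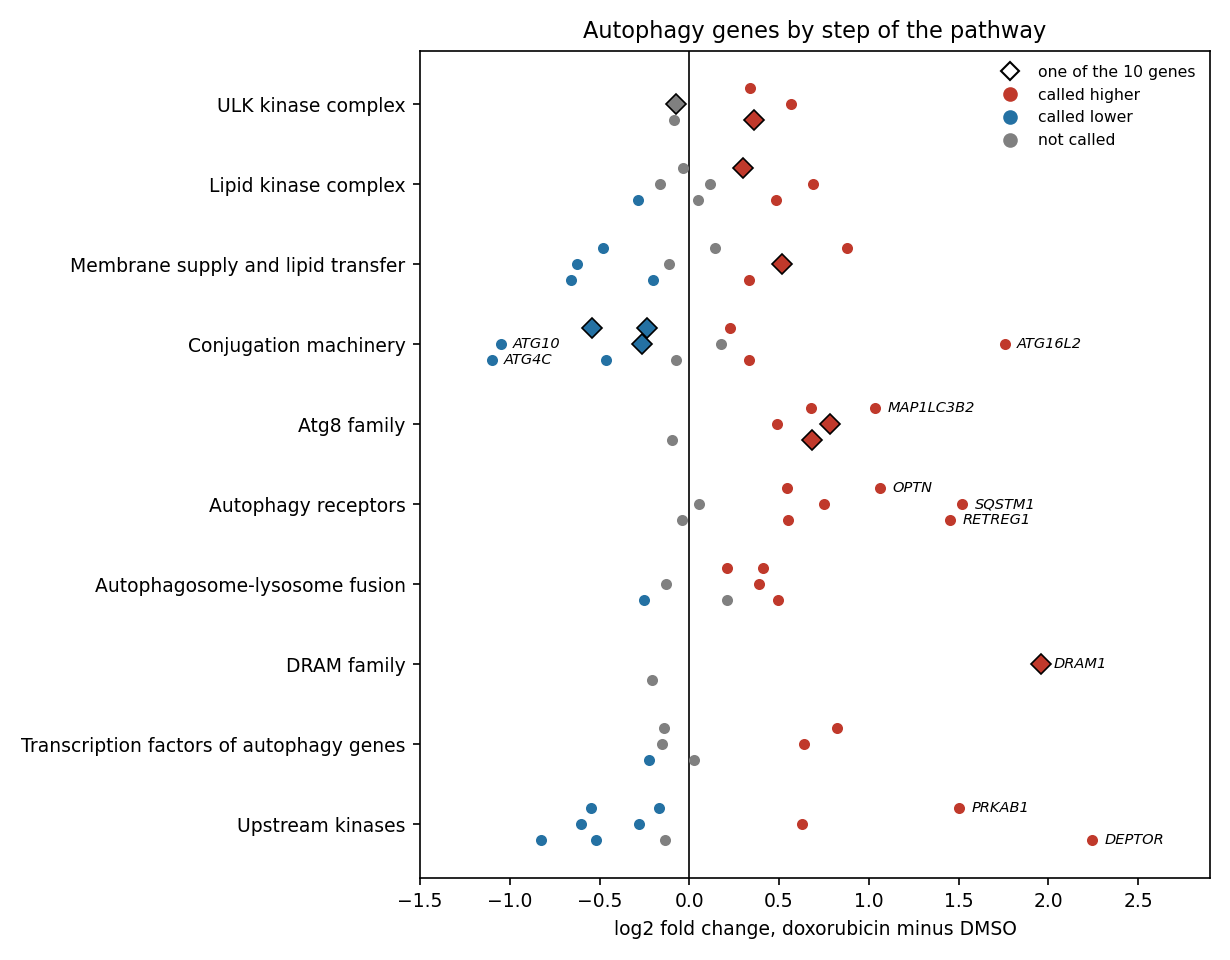
Log2 fold change, doxorubicin minus DMSO, of each tested autophagy gene, 1 row of points per step of the pathway. Diamonds are the 10 genes, circles the other 62, and colours give the call at an adjusted p under 0.05. In the Atg8 family and the receptors all called genes lie on the right, and in the conjugation machinery 6 of 9 called genes lie on the left, 3 of them diamonds.

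Ratios of 2 genes within a library do not depend on scaling between libraries, and 8 such pairs were compared. With 3 libraries against 3 the smallest two-sided p of the exact permutation test is 0.1, so no pair could pass 0.05. ULK1 over ULK2 per length was 11.9 in doxorubicin and 8.72 in DMSO as geometric means, and the log2 ratio differed by 0.44 (exact permutation p = 0.1, adjusted over the pairs 0.133). DRAM1 over DRAM2 was 8.35 in doxorubicin and 1.86 in DMSO, the largest shift, with log2 ratios of 2.95, 3.17 and 3.07 in doxorubicin, against 0.62, 0.80 and 1.26 in DMSO. BECN1 over PIK3C3 was 5.28 in doxorubicin and 3.84 in DMSO, a log2 difference of 0.46. ATG16L1 over ATG5 was 1.22 in doxorubicin and 0.987 in DMSO, a log2 difference of 0.30. WIPI1 over WIPI2 and GABARAPL1 over GABARAPL2 differed by 0.19 and 0.20. In these 6 pairs the groups did not overlap, and each had the same p and adjusted p. In the other 2 pairs they overlapped. MAP1LC3B over GABARAPL1 was 2.58 in doxorubicin and 2.41 in DMSO, a log2 difference of 0.09 (exact permutation p = 0.4, adjusted 0.4), and ATG7 over ATG5 differed by 0.27 (exact permutation p = 0.2, adjusted 0.229).

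**Figure D5:**
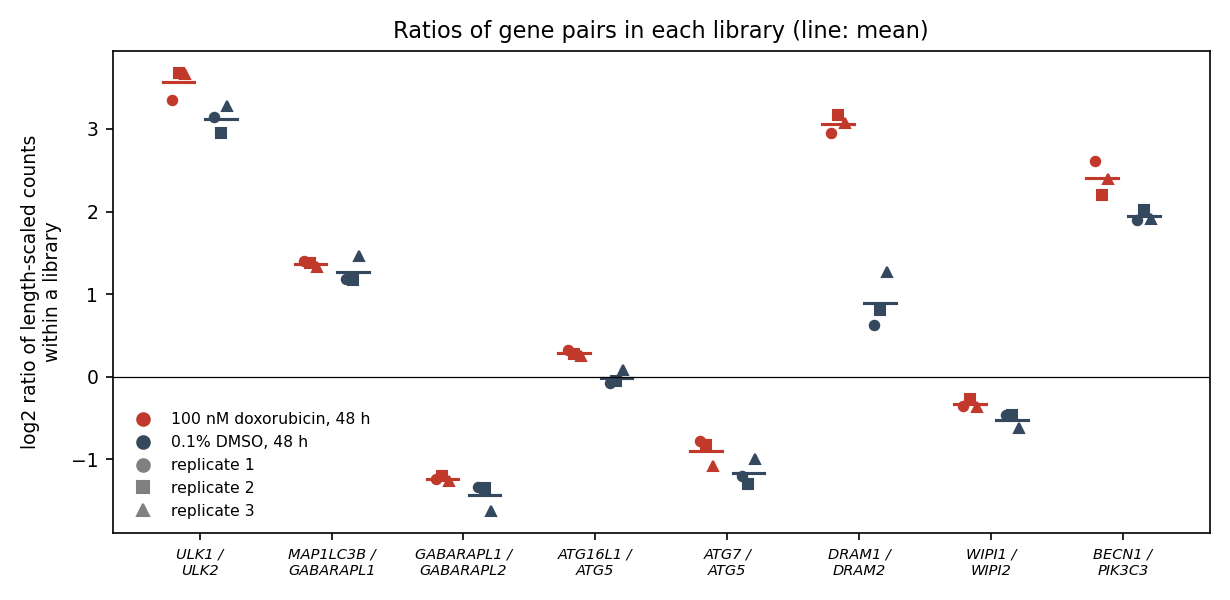
Log2 ratio of length-scaled counts for 8 gene pairs in each library, with doxorubicin left of DMSO and lines at the group means (n = 3 each). DRAM1 over DRAM2 shows the widest gap, 3.06 in doxorubicin and 0.90 in DMSO, and the points of MAP1LC3B over GABARAPL1 and of ATG7 over ATG5 overlap between the groups.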

How the data were processed

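Poly(A) RNA was sequenced in 3 doxorubicin and 3 DMSO libraries from an unstranded TruSeq v2 kit, per the labels' protocols. The authors deposited raw counts for each gene and library, laid out as featureCounts writes them per the file headers, with positions and summed exon length. Per the submitters' processing notes, reads were handled with STAR, SAMtools and featureCounts of the Subread package on GRCh38 (hg38), while settings are not given in the sources used here. Symbols came from a gene name table (57717 of 58299 IDs matched) and GENCODE release 29, which also gave exon overlaps and shared 50-base stretches. Positions are 1-based and span first to last exon.

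The test was edgeR's two-sided quasi-likelihood F test (version 4.0.16, R 4.3.3) for doxorubicin minus DMSO, with robust dispersions, TMM factors and no covariates, after filterByExpr (minimum count 10, total 15). P-values were adjusted by the Benjamini-Hochberg method over 15358 genes and calls made under 0.05. SEs of log2 fold changes are approximate, obtained from the F statistic. On counts simulated from these libraries (14394 genes tested) the procedure recovered 66.2% of 1.5-fold, 80% of 2-fold and 100% of 4-fold changes and called 9 of 14207 unchanged genes. In the simulation few genes changed, as many up as down, while in the data 64.7% of tested genes were called. These rates may therefore not hold for the data. Pair ratios were of counts per length, so their size depends on the annotated exon lengths, while the length cancels from the difference between groups. Within a group, libraries differed by more than sampling noise (chi-square per degree of freedom 2.82 to 9.39), and each was treated as 1 replicate. That spread may be technical and does not show that the libraries came from separate cultures. Promoters matched for 10 of the 10 genes, ATG5 with 2. Several of these windows lie inside the annotated gene span, so they may hold bases of longer transcripts.

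The 10 genes and the pathway lists were chosen with earlier results of these data known. The text names all 10 genes and, from each list, the called genes with an absolute log2 fold change of at least 1, or else the 2 with the largest. ATG13, RB1CC1, PIK3R4, PIK3C3, ATG3, ATG12, ATG4B, MAP1LC3A, GABARAP, GABARAPL2, CALCOCO2, TAX1BP1, DRAM2, TFE3, PRKAA1, PRKAA2, MLST8 and AKT1S1 were named after their values were seen. Not every gene of the lists is reported here by name. Alternatives were DESeq2 1.42.0, other scalings and filters, a test against a 1.5-fold change, the replicate number as a block and each library left out in turn.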

Additional observations from a re-analysis of the deposited data

How the results depend on the processing

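Over 14 other settings, the 6 genes that rose and the 3 that fell kept their direction, and no result reversed. The test against a 1.5-fold change left 2418 genes higher and 1470 lower among all tested, 2 of the 10 genes higher and 0 lower, and 8 of the other autophagy genes higher and 3 lower. That test asks for a larger change by construction. Leaving out each library in turn gave 6 of the 10 genes higher each time and 2 to 3 lower, 25 to 28 of the other autophagy genes higher and 13 to 18 lower, and 4703 to 5005 genes higher and 4519 to 4824 lower among all tested. The 2 came without doxorubicin replicate 3, when the call of ATG7 was lost. RLE size factors, upper-quartile scaling, library totals alone, no filter, a filter of 1 CPM in 3 libraries and DESeq2 each gave 6 of the 10 genes higher and 3 lower. DRAM1 ranged from 1.87 to 2.05 on the log2 scale, MAP1LC3B from 0.74 to 0.83, ATG5 from -0.62 to -0.50, and ULK2 from -0.19 to -0.003 without passing. Library totals alone moved the median of all genes to 0.04. It was 0.37 without a filter and 0.40 with DESeq2, both of which keep more low genes. Same-numbered libraries correlated at 0.0515, -0.0231 and 0.0270 in their deviations from group means, so the numbers were not taken as pairs, and not every library correlated best with its own number. With the replicate block, 5003 genes were higher and 4917 lower, and 6 of the 10 genes were higher and 3 lower. MAP1LC3B2, with 82 counts in all, kept its direction at 0.97 to 1.13 on the log2 scale while its call was lost in several settings, and the cause was not tested.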
